A study of Mus musculus with 10 samples.

Results

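The open chromatin around 6 genes for cytokine receptor chains, Il9r, Csf2rb, Csf2rb2, Il3ra, Il4ra and Il2rg, was followed while G1E-ER4 cells matured. They were taken by name from 21853 protein-coding genes, and every ATAC-seq peak summit from 50 kb before to 50 kb after each gene was collected. This gave 185 of the 146939 summits, in 34 of 28981 merged regions. G1E-ER4 is a mouse erythroid line without working Gata1, in which a GATA1 protein fused to the ligand-binding domain of the estrogen receptor is switched on by β-estradiol. All cells carried both changes and grew with stem cell factor and erythropoietin. Untreated cells (0 h) were compared with cells kept in 1e-07 M β-estradiol for 2, 6, 12 or 24 h, each time with 2 libraries of about 50000 tagmented cells. All libraries come from 1 cell line. The study describes the 2 libraries of a time as independent experiments, and any p-value covers only the spread between these libraries.

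Receptors of this family have no kinase of their own. Binding of a cytokine brings receptor chains together, JAK kinases bound to their tails phosphorylate them, and STAT proteins then carry the signal into the nucleus. Most of these receptors pair a chain that recognises one cytokine with a shared chain that signals. Il3ra and Il9r encode ligand-binding chains for IL-3 and IL-9, and Il4ra encodes the chain that binds IL-4 and also serves IL-13. Csf2rb encodes the common beta chain of the IL-3, IL-5 and GM-CSF receptors, and Csf2rb2 is its mouse paralog, which serves IL-3 alone. Il2rg encodes the common gamma chain, shared by IL-2, IL-4, IL-7, IL-9, IL-15 and IL-21. Early blood progenitors and mast cells use several of these receptors, whereas maturing red cells depend on erythropoietin.

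Each library had its own list of summits, scored by −log10 of the q-value and holding from 10698 to 19859 peaks, with no read totals, so depth was unknown and an unlisted site may lie under the calling threshold. Scores were therefore turned into percentiles, the rank of a peak in its own list, with 100 for the top and 0 for a site not listed. The median score was higher in replicate 2 at 5 of 5 times. A summit within 1 kb of a protein-coding start was counted as a promoter summit and any other as distal.

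The sequences that carry the findings come first. Upper-case letters in them mark the GATA motif, AGATAA or TGATAA on either strand (TTATCT or TTATCA when read on the other strand), and the STAT motif TTCNNNGAA. The 250 bases before the RefSeq start of Il9r (chr11:32200280-32200529, minus strand) and of Csf2rb2 (chr15:78305722-78305971, minus strand) are shown because summits fell in them. Of those before Il4ra, 99 (chr7:125552021-125552119, plus strand) are shown because this promoter was the one gained in the full lists. They are given 5′ to 3′ on the strand of the gene, from RefSeq on GRCm38.p6.
Il9r promoter: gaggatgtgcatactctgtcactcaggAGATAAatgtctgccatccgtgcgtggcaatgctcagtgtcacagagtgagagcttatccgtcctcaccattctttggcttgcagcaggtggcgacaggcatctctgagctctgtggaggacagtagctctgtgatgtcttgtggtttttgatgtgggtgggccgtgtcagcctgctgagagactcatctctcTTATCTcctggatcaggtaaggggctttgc
Csf2rb2 promoter: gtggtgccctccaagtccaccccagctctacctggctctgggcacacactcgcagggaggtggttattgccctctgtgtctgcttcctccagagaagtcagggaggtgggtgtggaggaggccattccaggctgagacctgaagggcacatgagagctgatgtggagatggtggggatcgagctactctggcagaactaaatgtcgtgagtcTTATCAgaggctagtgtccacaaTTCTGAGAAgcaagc
Il4ra promoter: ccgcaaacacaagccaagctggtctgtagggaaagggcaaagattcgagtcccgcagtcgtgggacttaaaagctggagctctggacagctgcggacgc

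Over the full 250 bases the Il9r promoter held 2 GATA matches, 1 of them also a TAL1-GATA composite, which is a GATA match with CTG 7 or 8 bases before it. The Csf2rb2 promoter held 1 GATA and 1 STAT match. No match of either kind lay in the 250 bases of Il4ra, Il3ra or Il2rg, and Csf2rb had no entry. Among 32851 RefSeq promoters of the same length, 16.6% held a GATA match, 0.846% a composite and 7.02% a STAT match. A match describes the letters only.

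Of the distal regions, 4 are shown by the 200 bases at their centre, on the plus strand of GRCm38 (mm10). The Il4ra region (chr7:125516894-125517093) is the one that was lost, the Csf2rb2 upstream region (chr15:78312627-78312826) was gained at several times, and the Il9r (chr11:32245708-32245907) and Csf2rb2 downstream (chr15:78267938-78268137) regions were the highest-ranked distal regions of their genes.
Il4ra, 35.1 kb upstream: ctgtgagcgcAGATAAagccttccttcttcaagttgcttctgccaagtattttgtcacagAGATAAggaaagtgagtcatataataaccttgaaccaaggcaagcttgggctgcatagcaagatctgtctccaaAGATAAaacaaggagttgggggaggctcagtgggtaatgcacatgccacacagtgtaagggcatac
Csf2rb2, 7.01 kb upstream: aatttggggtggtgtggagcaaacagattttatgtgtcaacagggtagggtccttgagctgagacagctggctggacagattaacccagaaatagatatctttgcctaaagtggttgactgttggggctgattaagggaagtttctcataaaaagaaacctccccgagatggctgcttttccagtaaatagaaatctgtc
Il9r, 45.6 kb upstream: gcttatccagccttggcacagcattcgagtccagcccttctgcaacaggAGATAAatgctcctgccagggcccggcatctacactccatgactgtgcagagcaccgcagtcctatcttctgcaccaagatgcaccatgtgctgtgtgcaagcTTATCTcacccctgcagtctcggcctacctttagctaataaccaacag
Csf2rb2, 37.7 kb downstream: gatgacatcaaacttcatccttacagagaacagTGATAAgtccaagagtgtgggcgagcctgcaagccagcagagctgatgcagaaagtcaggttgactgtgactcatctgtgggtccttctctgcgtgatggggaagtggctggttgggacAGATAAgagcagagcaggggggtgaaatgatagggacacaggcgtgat

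The Il4ra region held 3 GATA matches, 2 of them in composites. The Il9r region held 2 GATA matches, both in composites, and the downstream Csf2rb2 region 2 GATA matches with 1 composite. The upstream Csf2rb2 region held none of these motifs. Of the 24 distal regions in the 6 windows, 33.3% held a GATA match against 39.0% of 18956 distal regions in all, 20.8% a composite against 7.47%, and 12.5% a STAT match against 6.82%. Of the 10 promoter regions, 5 of them at receptor genes and 5 at neighbours, 40% held a GATA match against 7.17% of 10025 promoter regions. In the central 200 bases 0% held a composite against 1.12%, and 20% a STAT match against 3.76%. The composite of the Il9r promoter given above lay outside its central 200 bases (chr11:32200315-32200514). The 4 promoter regions with a GATA match were those of Il9r, Csf2rb, Csf2rb2 and the neighbour Snrnp25, and the STAT matches were at Csf2rb and Csf2rb2. In these paralogs the GATA match (chr15:78325917-78325922 and chr15:78305754-78305759) and the STAT match (chr15:78325940-78325948 and chr15:78305728-78305736) had the same order and spacing on the strand of each gene. The shares count the 2 paralogs separately, although they are not independent. Median GC content was 52.75% against 49% in distal regions and 59.5% against 64.5% in promoter regions, and what part it had in the shares was not tested.

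Most regions in the windows of the 6 genes were listed in some libraries and not in others. Only 4 of the 34 regions (11.8%) were in all 10 libraries, against 21.5% of all regions, and none of the 4 was the promoter of a receptor gene. They were the promoters of Snrnp25, Med12 and Snx12, which are neighbours of Il9r or Il2rg, and a region inside an intron of Nprl3. Another 6 regions (17.6%) were in 1 library alone, against 28.9% of all regions. The windows held 17 and 13 summits at 0 h, 25 and 19 (2 h), 20 and 27 (6 h), 19 and 19 (12 h), and 14 and 12 (24 h) (replicates 1 and 2 in that order, here and below). Per 10000 peaks of the list, these were 11.1 and 11.1 (0 h), 15.5 and 13.3 (2 h), 14.1 and 13.6 (6 h), 12.3 and 13.7 (12 h), and 8.99 and 11.2 (24 h). All 6 libraries from 2 to 12 h were above both 0 h libraries and both 24 h libraries, a description with no test.

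**Figure D1:**
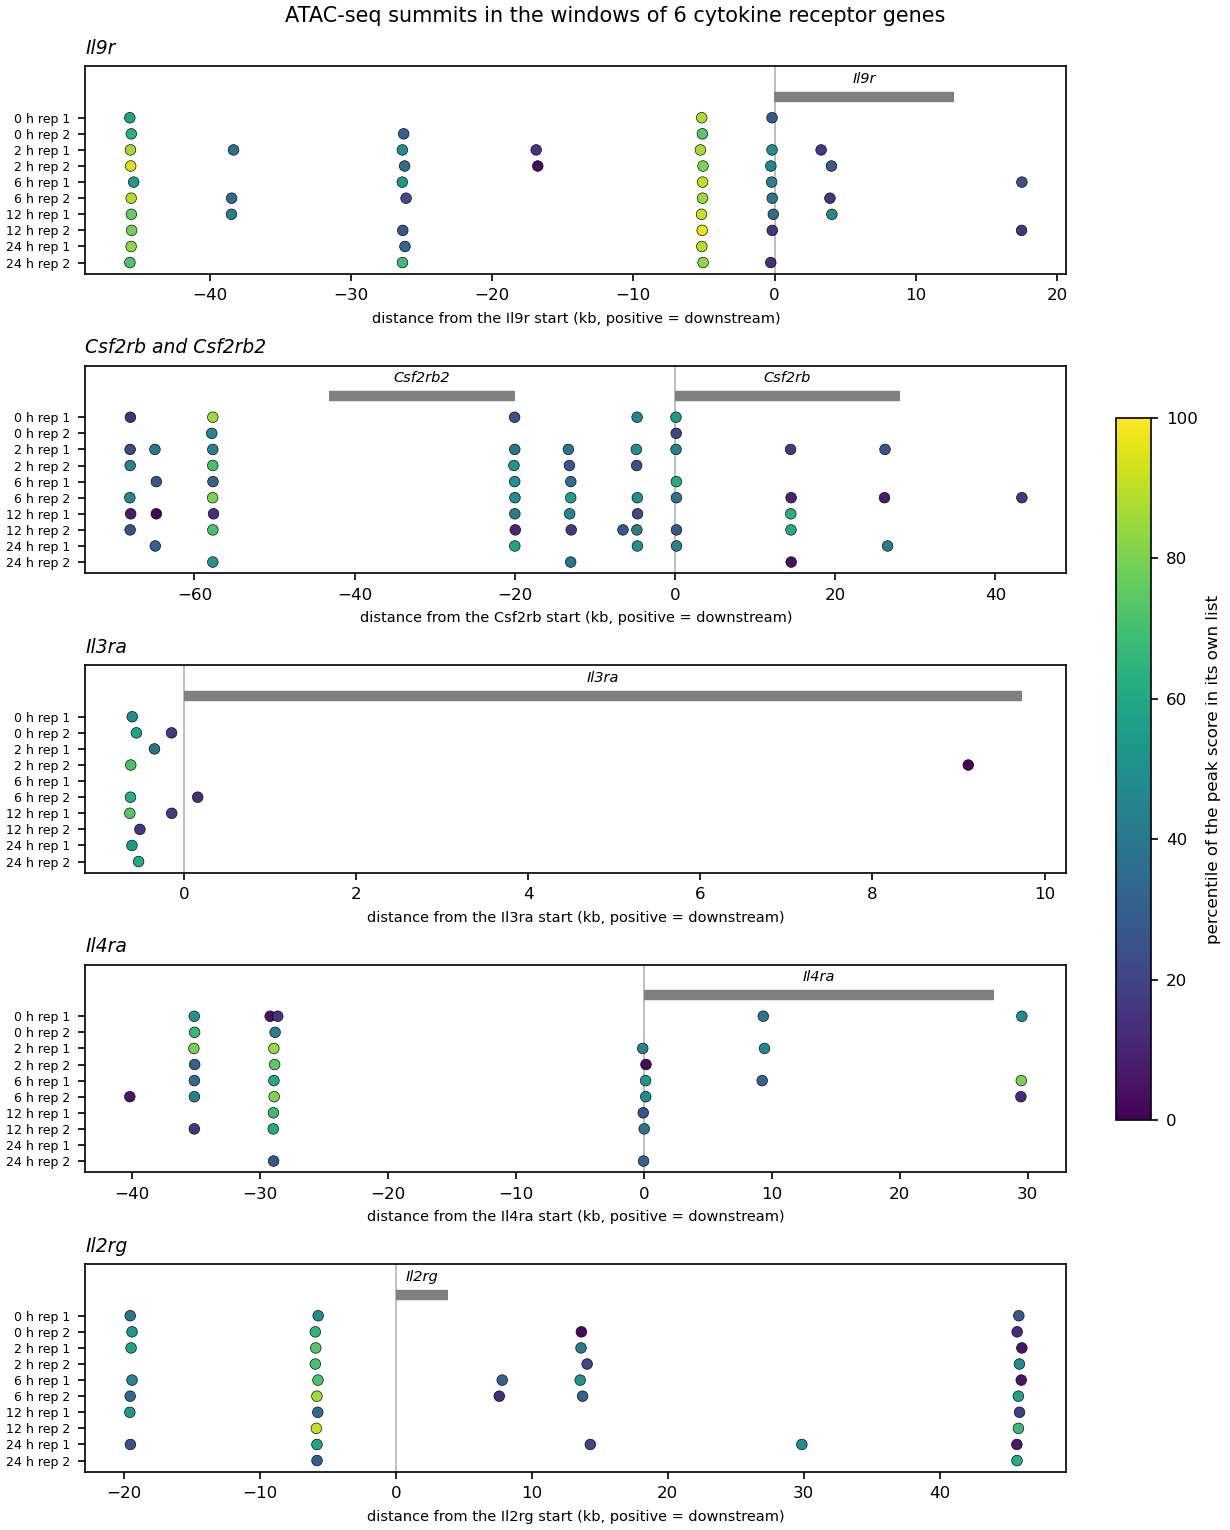
Summits of the 10 libraries around the receptor genes, by distance from the gene start in kb, with positive values downstream; each point is a summit, its colour is the percentile in its own list, and grey bars are the genes. The column 45.6 kb before Il9r is filled in all 10 libraries, the column 35.1 kb before Il4ra is empty in both 24 h libraries, and no summit lies at the Il2rg start.

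The promoters of 5 of the 6 genes had a summit in some libraries, none had one in all 10, and Il2rg had none in any. Over all protein-coding genes, 26.4% had a promoter summit in all 10 libraries and 55.5% in none. In the libraries that listed them, the medians of the promoter percentiles were 58.5 for Il3ra, 44.9 for Csf2rb2, 43.5 for Csf2rb, 37.9 for Il4ra and 36.8 for Il9r. The middle value of the same median over all genes with a summit was 61.6, so all 5 promoters ranked below it. The ranges of the 5 genes overlapped, from 16.1 to 72.8 for Il3ra and from 13.9 to 50.0 for Il9r, so the order of neighbours is not separated by the spread over libraries.

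Il3ra (chr14:14346275-14356011, plus strand), the IL-3 binding chain, had the most often listed promoter, in 9 of 10 libraries. Its percentiles were 48.6 and 58.5 (0 h), 37.3 and 70.7 (2 h), unlisted and 62.0 (6 h), 72.8 and 16.1 (12 h), and 54.6 and 60.9 (24 h). The 2 values at 0 h and at 24 h lay close together, and those from 2 to 12 h did not. The percentile had no relation with hours that passed the test (Spearman's rho 0.10, exact permutation p = 0.809, two-sided, adjusted p = 1). The highest summits lay from 344 to 631 bp before the start. A further, lower promoter summit was listed in 0 h replicate 2 (15.9), 6 h replicate 2 (12.7) and 12 h replicate 1 (16.5). The only distal summit of its window lay in a region in an exon of Il3ra 9.11 kb downstream, in 2 h replicate 2 alone at percentile 1.40.

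The paralogs Csf2rb (chr15:78325752-78353847, plus strand) and Csf2rb2 (chr15:78282507-78305721, minus strand) lie start to start, and their windows shared 7 regions, 87.5% of the 8 of Csf2rb and 70% of the 10 of Csf2rb2. These are counted once in the 34. Because only uniquely placed reads were kept, reads from identical stretches were left out. Of all 75-base stretches within 2 kb of the genes, 5.92% of those of Csf2rb and 6.99% of those of Csf2rb2 occurred exactly in the other gene, but only 0.647% within 500 bp on either side of the starts.

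The Csf2rb promoter had a summit in 7 libraries, from 118 to 186 bp after the start. Its percentiles were 54.7 and 20.3 (0 h), 43.5 and unlisted (2 h), 61.1 and 37.4 (6 h), unlisted and 26.1 (12 h), and 44.2 and unlisted (24 h). Replicate 1 was above replicate 2 at 4 of the 5 times, with 12 h the exception. The promoter of Csf2rb2 had a summit in 8 libraries, within 86 bp of the start on either side. Its percentiles were 24.2 and unlisted (0 h), 38.3 and 52.0 (2 h), 51.2 and 48.7 (6 h), 41.0 and 10.3 (12 h), and 58.8 and unlisted (24 h). Both libraries at 2 and 6 h were above both at 0 h, with means of 45.2 ± 9.66 and 50.0 ± 1.72 against 12.1 ± 17.1 (SD, n = 2), but an exact permutation test of 2 libraries against 2 cannot go below p = 0.333. Neither relation with hours passed the test (rho −0.20 with exact permutation p = 0.593 for Csf2rb, and 0.17 with exact permutation p = 0.636 for Csf2rb2, adjusted p = 1 for both).

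Il9r (chr11:32187541-32200279, minus strand) had a promoter summit in 8 libraries, from 89 to 269 bp before its first protein-coding start at position 32200236. Its percentiles were 28.7 and unlisted (0 h), 50.0 and 46.7 (2 h), 44.7 and 38.7 (6 h), 34.8 and 15.4 (12 h), and unlisted and 13.9 (24 h). The values at 2 and 6 h were above all others, and 1 library at 0 h and 1 at 24 h had no summit. The mean went from 14.4 ± 20.3 at 0 h to 48.3 ± 2.29 at 2 h and 6.97 ± 9.86 at 24 h (SD, n = 2 each), and the relation with hours did not pass the test (rho −0.32, exact permutation p = 0.366, adjusted p = 1). Without 0 h replicate 2 the rho was −0.72 and without both 24 h libraries 0.05.

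Il9r was also among the promoters that the study targeted with guide RNAs for a biotinylated dead Cas9. The 3 guides, matched here to GRCm38, lie at chr11:32200524-32200543 (plus strand), chr11:32200529-32200548 (minus strand) and chr11:32200525-32200544 (plus strand) and overlap each other. They are shown with the PAM that follows each in the genome in capitals.
guide 1: atcctcccgggcaatgccacTGG
guide 2: acccagtggcattgcccgggAGG
guide 3: tcctcccgggcaatgccactGGG

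The nearest Il9r promoter summit of any library was 19 bp from guide 1, 24 bp from guide 2 and 20 bp from guide 3, and the farthest was 199, 204 and 200 bp away. All 3 guides thus lay upstream of every Il9r promoter summit.

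Il4ra (chr7:125552120-125579474, plus strand) had no promoter summit at 0 h and gained one. The percentiles were unlisted in both libraries at 0 h, 45.2 and 2.64 (2 h), 53.1 and 47.3 (6 h), 24.9 and 37.9 (12 h), and unlisted and 31.8 (24 h). All 6 libraries from 2 to 12 h had the summit, although 1 of them near the bottom of its list, and the mean at 6 h was 50.2 ± 4.12 (SD, n = 2). The promoter thus counted as gained at 2, 6 and 12 h, meaning in both libraries of that time and in neither at 0 h, and not at 24 h. Its summit ranked 13900 in 2 h replicate 2 and 11588 in 12 h replicate 1. Both ranks fall outside lists cut to their 10698 highest-scoring peaks, so with such lists only the gain at 6 h is left. Of 9731 gene promoters with a summit in any library, 1.43% were gained at 2 h, 2.33% at 6 h and 1.65% at 12 h. None of the 5 receptor promoters was lost at 2, 6, 12 or 24 h, where 0.791%, 0.0925%, 0.709% and 1.22% of the 9731 were. The relation with hours did not pass the test (rho 0.20, exact permutation p = 0.593, adjusted p = 1). The summits lay within 173 bp of the start, on either side.

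Il2rg (chrX:101264378-101268255, minus strand), the common gamma chain, had no promoter summit in any of the 10 libraries. Its window was nevertheless open at neighbouring genes. The Med12 promoter, 5.80 kb upstream, had percentiles between 29.0 and 91.0 and the Snx12 promoter, 45.8 kb downstream, between 5.19 and 67.9, both in all 10 libraries, and the Foxo4 promoter, 13.7 kb downstream, was in 6 libraries.

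**Figure D2:**
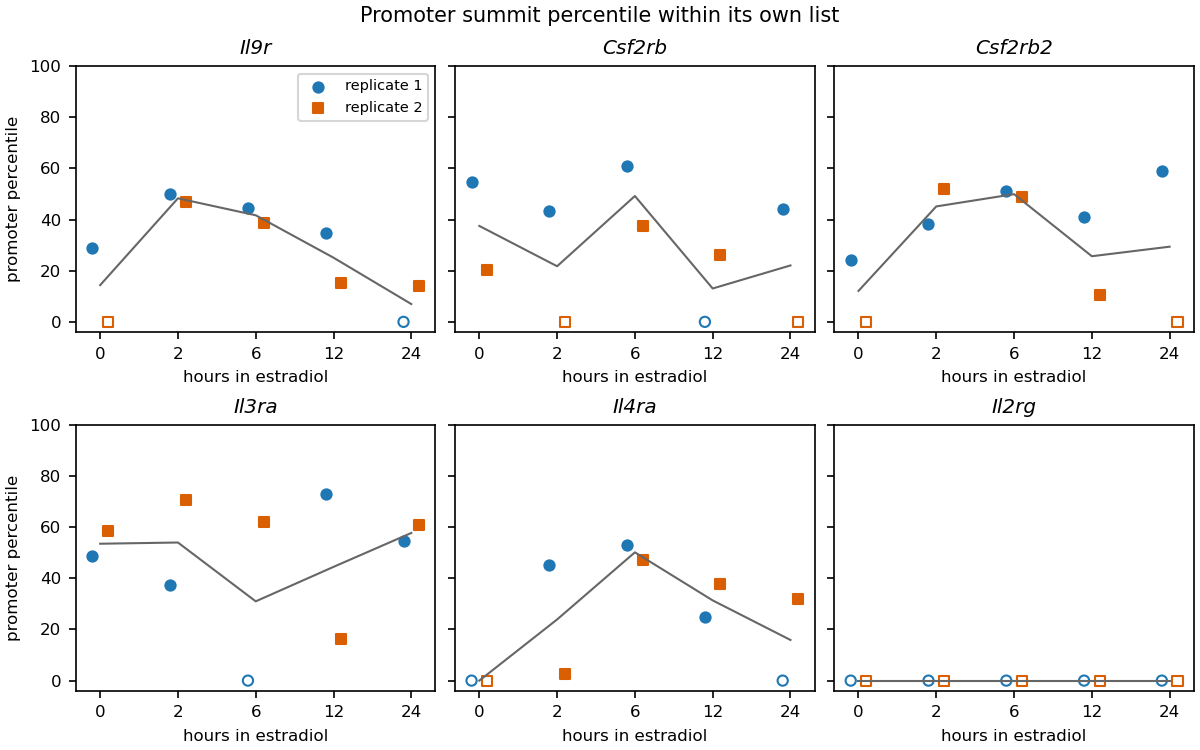
Promoter percentile of each receptor gene (vertical axis, 0 to 100) at each time in hours; filled points are libraries with a summit, open points at 0 are libraries without one, and the line joins the means of 2 libraries. Il4ra is at 0 in both 0 h libraries and listed in all 6 libraries from 2 to 12 h, and Il2rg is at 0 throughout.

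Distal summits were most numerous around Csf2rb2 and nearly absent around Il3ra. The medians over 10 libraries were 3.5 for Csf2rb2, 2 each for Il9r, Csf2rb and Il4ra, 1 for Il2rg and 0 for Il3ra, and over all genes the median was 0. A median at least that of Csf2rb2 was found in 2.64% of all genes, and one at least that of Il9r, Csf2rb or Il4ra in 15.2%.

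Il4ra had 5 and 2 distal summits at 0 h, 3 and 2 (2 h), 4 and 4 (6 h), 1 and 2 (12 h), and 0 and 1 (24 h). Both 24 h libraries were below both 0 h libraries. This was the steepest relation with hours of the 6 (rho −0.69, Pearson's r −0.72, exact permutation p = 0.0334 and 0.0192, two-sided), but it did not pass after adjustment over 14189 genes (adjusted p = 1). Without the 24 h libraries the rho was −0.40 (exact permutation p = 0.340), and within replicates 1 and 2 it was −0.90 and −0.45 (exact permutation p = 0.0833 and 0.6).

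Csf2rb2 had 3 and 1 distal summits at 0 h, 7 and 4 (2 h), 3 and 6 (6 h), 6 and 6 (12 h), and 3 and 3 (24 h). Csf2rb, whose window overlaps, had 1 and 0 (0 h), 4 and 2 (2 h), 1 and 5 (6 h), 3 and 4 (12 h), and 2 and 2 (24 h). In Csf2rb2 both libraries at 2 and at 12 h were above both at 0 h, and in Csf2rb this also held at 24 h. Il9r had 1 and 1 (0 h), 4 and 3 (2 h), 2 and 3 (6 h), 3 and 2 (12 h), and 1 and 1 (24 h). In the full lists every Il9r library from 2 to 12 h thus had more distal summits than any at 0 or 24 h. This depends on list length. Summits at ranks 10802 (6 h replicate 1), 13062 and 16745 (6 h replicate 2) and 11670 (12 h replicate 2) fall outside lists cut to 10698 peaks. With such lists these libraries keep only the region 45.6 kb upstream, as do the libraries at 0 and 24 h. Il2rg had from 0 to 2 and Il3ra from 0 to 1. None of the 6 genes passed the test against hours for distal summits, and by unadjusted p-values 1 was lower (Il4ra). With every list cut to its 10698 highest-scoring peaks, Csf2rb had a rho of 0.72 (exact permutation p = 0.0238, adjusted p = 0.740), against 0.38 (exact permutation p = 0.285) in the full lists. Over all genes, by exact permutation of Spearman's rho, 0 of 14189 passed and by unadjusted p-values 213 were higher (1.5%) and 317 lower (2.23%) with time. The same test on Pearson's r also gave 0.

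**Figure D3:**
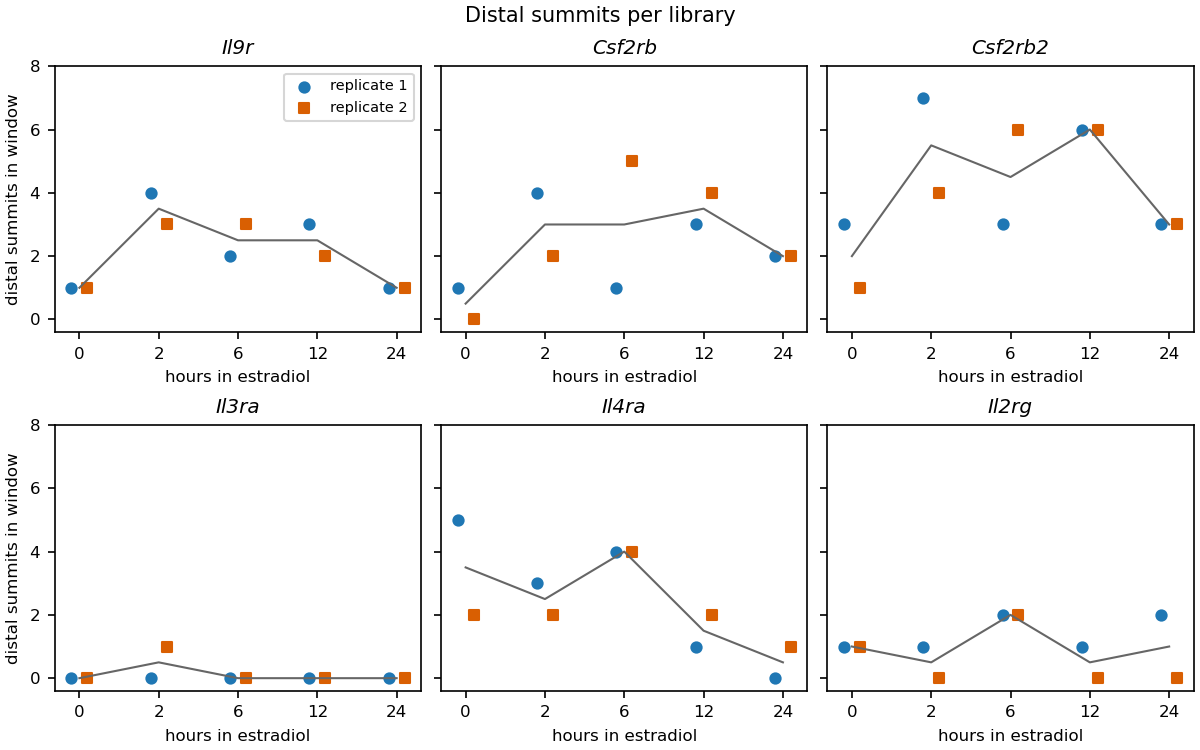
Distal summits per library in the window of each receptor gene (vertical axis, count) at each time in hours; points are libraries and the line joins the means of 2 libraries. In these full lists Il9r has 1 in each library at 0 and 24 h and from 2 to 4 between, and Il4ra ends at 0 and 1.

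Whether regions came or went was counted against 0 h at each later time. At 2 h, 3 of the 34 regions (8.82%) were gained against 2.67% of all 28981 regions. At 6 h 3 were gained against 4.08%, and at 12 h 3 against 2.47%. At 24 h 0 of 34 were gained (1.71% of all regions) and 1 (2.94%) was lost, against 3.51% of all regions. At 2, 6 and 12 h 0 were lost, with 1.15%, 0.759% and 1.88% lost over all regions. The 4 comparisons share the 0 h libraries. With so few regions, and no test of a share, these counts are a description. A call needs all 4 libraries, so leaving one out relaxes it. The gained count was 8 (23.5%, against 11.2% of all regions) at 2 h without 2 h replicate 2, 9 (26.5% against 19.5%) at 6 h without 6 h replicate 1 and 7 (20.6% against 6.85%) at 12 h without 0 h replicate 1. At 24 h it was 3 (8.82%) without either 24 h library, against 4.21% of all regions without replicate 1 and 12.6% without replicate 2. The lost count at 24 h was 4 without 0 h replicate 2, 11.8% against 11.4% of all regions.

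**Figure D4:**
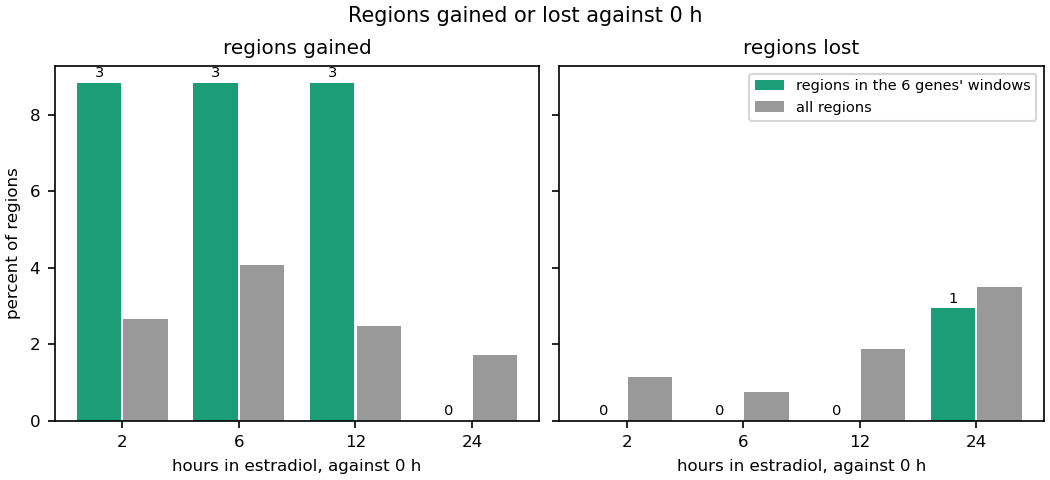
Share of regions gained (left) or lost (right) against 0 h at each later time in hours, in percent; green bars are the 34 regions in the windows of the receptor genes, with their number on top, and grey bars all 28981 regions. Gains stand at 3 regions at 2, 6 and 12 h and 0 at 24 h, where the 1 loss occurs.

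The region lost at 24 h lay 35.1 kb upstream of Il4ra (chr7:125516702-125517265), in intergenic DNA with Nsmce1, a subunit gene of the SMC5/6 complex, as the nearest start at 25.4 kb. It is the region printed above with 3 GATA matches. Its percentiles were 50.8 and 66.9 (0 h), 79.1 and 30.2 (2 h), 34.6 and 43.4 (6 h), unlisted and 14.6 (12 h), and unlisted in both (24 h). All 3 unlisted values and the lowest listed one were at 12 and 24 h. Of 25 regions that could be tested in these windows, it had the rho farthest from 0 (rho −0.87, exact permutation p = 0.00249, two-sided), but it did not pass after adjustment over 17234 regions (adjusted p = 0.593). The rho ranged from −0.91 to −0.78 when each library or both 24 h libraries were left out. No region of any gene passed, with 283 higher (1.64%) and 725 lower (4.21%) by unadjusted p-values.

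The second region before Il4ra, 28.9 kb upstream, was its highest-ranked distal region and was in 9 libraries. Its percentiles were 15.2 and 42.0 (0 h), 84.5 and 74.6 (2 h), 59.9 and 80.6 (6 h), 69.1 and 60.2 (12 h), and unlisted and 27.1 (24 h). All 6 libraries from 2 to 12 h were above the 4 others. Its relation with hours did not pass the test (rho −0.22, exact permutation p = 0.552, adjusted p = 1).

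The region 7.01 kb upstream of Csf2rb2 (chr15:78312186-78313043), between the paralogs, was gained at 2, 6 and 12 h. It was unlisted in both libraries at 0 h, and then stood at 38.1 and 26.9 (2 h), 35.9 and 55.5 (6 h), 47.3 and 16.6 (12 h), and unlisted and 38.5 (24 h). It was thus in 7 of the 8 treated libraries and in no untreated one. In 12 h replicate 2 its summit ranked 11534, outside lists cut to 10698 peaks, so its gain at 12 h depends on list length. Within an intron of Csf2rb, 14.5 kb from its start (chr15:78339931-78340509), a region was gained at 12 h. It stood at 63.5 and 60.6 there, and at most at 16.1 in any other library.

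The other regions of the paralogs did not come or go in both libraries of a time. The highest-ranked distal region of Csf2rb2, 37.7 kb downstream and with Ncf4, a gene for a subunit of the phagocyte NADPH oxidase, as its nearest start, was in 9 libraries. Its percentiles were 86.0 and 46.9 (0 h), 43.0 and 70.0 (2 h), 31.5 and 80.2 (6 h), 14.0 and 70.9 (12 h), and unlisted and 52.2 (24 h). In replicate 1 it was lower at each later time, and in replicate 2 every later time was above 0 h, so the replicates parted in this region (rho over all −0.42, exact permutation p = 0.239, adjusted p = 0.995). The highest-ranked distal region of Csf2rb by its mean over libraries lay 4.73 kb upstream, was in 7 libraries with percentiles up to 51.8 and held 1 STAT match.

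**Figure D5:**
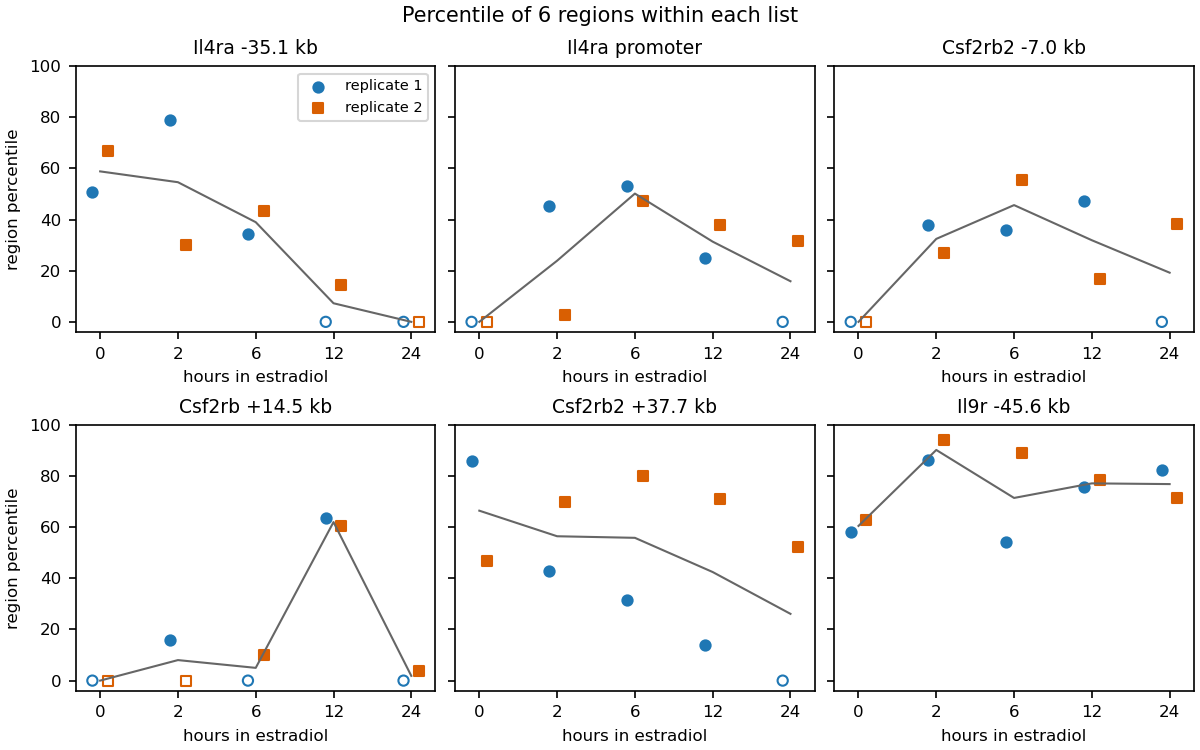
Percentile of 6 regions (vertical axis, 0 for not listed) at each time in hours; filled points are libraries with the region, open points those without, and the line joins the means of 2 libraries. The Il4ra region at −35.1 kb ends at 0 in both libraries, the Il4ra promoter and the Csf2rb2 region at −7.0 kb start at 0 in both, and the Csf2rb region at +14.5 kb stands above 60 at 12 h alone.

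Around Il9r, the region 45.6 kb upstream was listed in all 10 libraries. It lies in an intron of Nprl3, a gene whose introns hold known enhancers of the alpha-globin genes. It was placed in the window of Il9r by distance, and a link to Il9r was not tested. Its percentiles were 58.3 and 62.7 (0 h), 86.2 and 94.3 (2 h), 54.1 and 88.9 (6 h), 75.8 and 78.5 (12 h), and 82.5 and 71.3 (24 h). All libraries but 6 h replicate 1 were above both at 0 h, and the relation with hours did not pass the test (rho 0.12, exact permutation p = 0.753, adjusted p = 1). The single gain near Il9r was at 2 h, in an exon of Rhbdf1 (chr11:32216758-32217370), 16.8 kb upstream of Il9r, with percentiles of 15.1 and 2.99 and no other library listing it. Near Il2rg the single gain was at 6 h, in an exon of Foxo4 with Gm614 as the nearest start, 7.72 kb downstream of Il2rg, at 30.1 and 13.1 and in no other library. The highest-ranked distal region of Il2rg lay 19.5 kb upstream in an intron of Med12, with Nlgn3 as the nearest start. It was in 7 libraries at percentiles up to 57.0 and held 2 GATA matches.

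Other receptor genes and genes of the pathway were read at their promoters. Of 34 further receptor chains, 5 had a promoter summit in all 10 libraries, 8 in some and 21 in none. Csf1r, Flt3, Tnfrsf1a, Il1r1, Il18r1 and Il17ra among them belong to other receptor families. Beside this and the following lists stand the shares over all protein-coding genes, 26.4% in all 10 libraries and 55.5% in none. Csf2ra, the GM-CSF binding chain that pairs with the product of Csf2rb, was in all 10, with percentiles from 53.6 to 90.7 (rho 0.34, exact permutation p = 0.341). Ifnar1, a type I interferon receptor chain, and Il6st, the shared gp130 chain, were also in all 10 (rho −0.37 and 0.32, exact permutation p = 0.304 and 0.378), and Il11ra1, the IL-11 binding chain, was in 9 (rho −0.30, exact permutation p = 0.420). None was gained or lost at 24 h, where over all gene promoters with a summit 0.997% were gained and 1.22% lost.

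Downstream of the receptors, of 11 JAK and STAT genes, 6 promoters were in all 10 libraries, 4 in some and 1 in none. Jak2, the kinase bound by the beta chain, was in 8 libraries, and Jak3, the partner of the common gamma chain, in 6 (rho 0.31 and 0.28, exact permutation p = 0.388 and 0.435). Stat5b, a STAT that acts below IL-3, was in 3, and Jak1 in 10 (exact permutation p = 0.4 and 0.420). Of 15 genes that hold cytokine signalling in check, 13 were in all 10, with Socs1, an inhibitor of JAK kinases, nearest to a trend (rho 0.57, exact permutation p = 0.0987). Socs4, Pias3 and Socs6 followed (exact permutation p = 0.239, 0.239 and 0.272).

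Of 14 genes known to respond to STAT5, 6 were in all 10 libraries, 6 in some and 2 in none. Pim2, a survival kinase, had the steepest course. Its percentiles were 24.1 and unlisted (0 h), 35.9 and 37.2 (2 h), 89.8 and 69.5 (6 h), 88.6 and 38.2 (12 h), and 70.0 and 43.4 (24 h). All 8 treated libraries were above both at 0 h (rho 0.71, exact permutation p = 0.0275, adjusted p = 1). Pim1, Myc and Osm had exact permutation p = 0.460, 0.508 and 0.576. Of the 4 lists of receptor and signalling genes, 0 genes passed the adjusted test in either direction, and over all genes 0 of 9107 passed by Spearman's rho or Pearson's r. Unadjusted by rho, 102 were higher (1.12%) and 143 lower (1.57%).

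Markers of cell types were read beside these. Of 12 erythroid markers, 5 promoters were in all 10 libraries, 5 in some and 2 in none, and among them Gata1 itself was listed in 1 library. All 8 lymphoid and all 8 myeloid markers were unlisted in every library. Of 12 mast cell and basophil markers, 9 were unlisted throughout, Gata2, Cpa3 and Ms4a2 among them. The summed percentile of the 12 was 153 and 170 at 0 h, between 45.6 and 129 from 2 to 12 h, and 0 and 64.7 at 24 h. Il1rl1, the IL-33 receptor, was the 1 marker promoter lost at 24 h, where 1.22% of all gene promoters with a summit were lost. Il1rl1 went from 93.8 and 87.5 at 0 h to unlisted (rho −0.75, exact permutation p = 0.0193, adjusted p = 1). Kit, the only other marker of this list with a promoter summit at 0 or 24 h, stood at 59.0 and 83.0 (0 h), and unlisted and 64.7 (24 h). Its relation with hours did not pass the test (rho −0.30, exact permutation p = 0.420). The sum at 0 and 24 h thus rested on Kit and Il1rl1 and does not describe the list as a whole. This sum was lower at 24 h than at 0 h, as was the Il4ra region 35.1 kb upstream, and its part in that result was not tested.

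The promoters with the course most like each gene were taken by Pearson's r over the 10 libraries among 9106 other genes. They were B4galt3 (0.95), Ptpn21 (0.94) and Rcl1 (0.90) for Il9r, Nsd3 (0.95), Mettl21a (0.95) and Lmbr1l (0.92) for Csf2rb, and Dnajc14 (0.96), Dnajc21 (0.96) and Plec (0.95) for Csf2rb2. For Il3ra they were Ddx39 (0.90) and Etfdh and 4930579G24Rik (0.89 each, with the same values in every library), and for Il4ra Zfp850 (0.94), Pank3 (0.93) and Usp47 (0.92). The 10 points share the depth of their libraries, and the highest of many values is high by selection, so these are descriptions without a p.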

How the data were processed

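Open chromatin was measured by ATAC-seq, in which Tn5 transposase cuts open DNA, in 10 libraries, 2 at each of 5 times, grouped by their titles. The authors trimmed adaptors, aligned to mm10, kept uniquely placed reads and called peaks in each library with MACS, using its option for no fragment model. Bowtie2 is the aligner of the methods, whereas the submitters' processing notes name Bowtie 1.0.0. The deposited score is −log10 of the q-value, and positions are summits of 1 base without widths or counts. No Tn5 shift is stated, which can move a summit by a few bases, and depth is unknown.

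Mitochondrial peaks were left out. Each summit was widened by 250 bp per side and merged over the 10 lists. Genes came from GENCODE M21. Percentiles were tested against hours by exact permutation of Spearman's rho over all 113400 orders, two-sided, with Benjamini-Hochberg adjustment over all genes or regions (in at least 3 libraries for promoters and regions), a threshold of 0.05, and tested on simulated data. Gained or lost regions carry no p.

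The 6 genes and all lists were chosen with earlier results of these data known. Named are the 6 genes, the nearest gene of each region described, every region gained, lost or passing the test, the highest-ranked distal region of each gene, up to 4 genes per list and the 3 most similar promoters. The markers Gata1, Gata2, Cpa3 and Ms4a2 were named after their values were seen. Alternatives were other window, promoter and flank distances, a stricter score, equal lists, Pearson's r, a replicate block and each library left out. Python 3.11.15, numpy 2.4.6, pandas 2.3.3, scipy 1.17.1 and matplotlib 3.10.9 were used.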

Additional observations from a re-analysis of the deposited data

How the results depend on the processing

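Of 338 values under alternatives, 293 kept their side of the threshold and direction or stayed within 1.5 times the count, 28 counts moved and 17 rho values, none past the threshold, changed sign. Since 1 gene or region alone cannot pass, staying on the same side of the threshold says little. With lists cut to 10698 peaks, regions gained at 12 h were 1 of 28 (3.57%, against 2.12% of all regions), lost at 12 h 1 (3.57% against 2.51%) and lost at 24 h 2 (7.14% against 3.80%). Regions gained at 2 h and at 6 h were 3 each (10.7%, against 2.18% and 2.20%), but not the same regions as in the full lists. The Il4ra promoter at 2 h and the regions in exons of Rhbdf1 and Foxo4 were no longer among them. In 0 h replicate 1 the promoter summits of Il9r and Csf2rb2 ranked 10876 and 11564, outside such lists. With these lists the Il9r promoter counted as gained at 2 h and the Csf2rb2 promoter at 2 and 6 h. With windows of 25 kb, 0 were lost at 24 h, because the region lies outside. The rho of distal summits was 0.0152 for Il3ra with promoters of 500 bp, −0.0354 by Pearson's r for Csf2rb2 and 0.38 without the 24 h libraries for Il9r. The rho of promoters was −0.28 for Il3ra at 500 bp, 0.0909 for Csf2rb and −0.13 for Il4ra in libraries with a summit only, −0.0266 by Pearson's r for Csf2rb2 and 0.0488 without the 24 h libraries for Il9r. Causes of sign changes were not tested.

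With 1 library left out, gained counts ran from 5 to 8 at 2 h, 5 to 9 at 6 h, 3 to 7 at 12 h and 0 to 3 at 24 h, and lost counts from 0 to 2, 0 to 1, 1 to 2 and 1 to 4, since a lone library can call a region. Over all regions the gained shares rose too, to 4.13% to 11.2%, 5.80% to 19.5%, 3.73% to 11.5% and 2.58% to 12.6%, and the lost shares to 3.07% to 7.35%, 1.11% to 5.86%, 3.73% to 8.69% and 5.12% to 11.4%. The rho of distal summits ran from −0.40 to 0.0793 for Il9r, 0.14 to 0.51 for Csf2rb, −0.20 to 0.298 for Csf2rb2, −0.35 to −0.21 for Il3ra, −0.81 to −0.58 for Il4ra and −0.26 to 0.26 for Il2rg. For promoters it ran from −0.72 to −0.14 for Il9r, −0.39 to −0.00862 for Csf2rb, −0.0723 to 0.47 for Csf2rb2, −0.0424 to 0.24 for Il3ra and −0.0298 to 0.477 for Il4ra.

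The replicate numbers are shared by all times but the labels do not say that they pair libraries. With the replicate number as a block, 0 genes and 0 regions here passed, as without it. The block leaves 14400 orders, so 1 gene or region alone could not pass, and this count decides nothing. The rho of Il4ra distal summits was −0.69 (exact permutation p = 0.0583) and that of the region 35.1 kb upstream −0.89 (exact permutation p = 0.00528, adjusted p = 0.583). Unknown depth means that a site not listed may still be open.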
